A study of Mus musculus with 24 samples.

Results

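A set of 10 genes that encode core subunits of the BAF complex, or close paralogs of them, was followed through the differentiation of male mouse embryonic stem cells (mESCs): Smarca4, Smarca2, Smarcc1, Smarcc2, Smarcb1, Smarcd1, Smarcd2, Smarcd3, Smarce1 and Actl6a. They were chosen by gene symbol, and all 10 were found among the 25965 entries of the expression table and among the 13296 entries tested. The C57/Bl6 cells were expanded in 2i with LIF and weaned into serum medium to differentiate. At day 2 they were transduced with a retrovirus that carried a short hairpin, and puromycin was applied from day 3, so the control cells had also been through infection and selection. The hairpins were Smarcc1.6 and Smarcc1.7 against Smarcc1, Smarca4.4 and Smarca4.6 against Smarca4, and a nonsilencing hairpin (Nons) as the control. RNA was sequenced on days 4, 5, 6 and 7 with 1 library for each hairpin and day, which gave 8 Smarcc1 knockdown, 8 Smarca4 knockdown and 4 Nons libraries. The 4 libraries of a further Nons replicate were not analysed here, so every comparison with Nons rests on 1 Nons series.

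BAF is a chromatin remodelling complex that uses ATP to slide or evict nucleosomes and so opens promoters and enhancers. Each complex holds a single ATPase, either the product of Smarca4 (BRG1) or that of Smarca2 (BRM). Around it a scaffold is built from SMARCC1 (BAF155) and SMARCC2 (BAF170), from one of the SMARCD proteins (BAF60), from SMARCB1 (BAF47), SMARCE1 (BAF57) and ACTL6A (BAF53A). Which paralogs fill the positions changes with cell type, and the form described in embryonic stem cells is rich in BRG1 and BAF155 and poor in BRM and BAF170. The data address both how these genes change during differentiation and whether loss of one subunit transcript is accompanied by a change in the others.

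The guide strands of the hairpins are printed to show where each knockdown acts on its transcript and how far each guide is from the paralog. They are written 5′ to 3′ from the study's hairpin sequences, in DNA letters, and the capitals mark the seed, bases 2 to 8 of the guide:
Smarcc1.6: tGTAACTGcttcttcatcctgc
Smarcc1.7: tTGCTCATcttcttccttctga
Smarca4.4: tTTATTACtgtctgactccagt
Smarca4.6: tTGCATAAtagtgttcatcagt
Nons: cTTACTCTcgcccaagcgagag

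Each of the 4 targeting guides was fully complementary over its 22 bases to transcripts of its own target and of no other gene in GENCODE M21, and the Nons guide matched no transcript in full. In mm10 the Smarcc1.7 site lay at chr9:110173911-110173932 in exon 11 of 28 of Smarcc1, and the Smarcc1.6 site at chr9:110177472-110177493 in exon 13, both within coding sequence on the plus strand. Both sites are held by 4 of 6 protein-coding Smarcc1 transcripts. The Smarca4.6 site lay at chr9:21670504-21670525 in coding exon 22 of 34 of Smarca4, also on the plus strand, and is held by 4 of 4 protein-coding transcripts. The Smarca4.4 site lay at chr9:21703327-21703348 in the last exon, beyond the coding sequence, in the 3′ UTR, and is held by 3 of these 4. The closest stretch of Smarca2 had 8 mismatches to the Smarca4.4 site and 4 to the Smarca4.6 site. For Smarcc2 the fewest mismatches were 8 to the Smarcc1.6 site and 7 to the Smarcc1.7 site. Matches to the seed alone were counted in the main transcript of each of the 10 genes. Beyond its own target, Smarcc1.7 had 1 each in Smarcc2, Smarcd2 and Smarce1, and Smarcc1.6 had 1 each in Smarca2 and Smarcd2. Smarca4.4 and Nons each had 1 in Smarcc1, and Smarca4.6 matched only its target. The part of these seed matches in the results below was not tested.

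By the positions in the deposited table (mm10), whose ends differ for some of these genes from those in GENCODE M21, Smarca4 (chr9:21616169-21704230) and Smarcc1 (chr9:110132037-110240178) lie on the plus strand of one chromosome, and their paralogs lie elsewhere, Smarca2 at chr19:26605115-26778321 and Smarcc2 at chr10:128459236-128490173, also on the plus strand. The 3 Smarcd genes are unlinked, Smarcd1 at chr15:99702287-99713995 on the plus strand, Smarcd2 at chr11:106263179-106272972 and Smarcd3 at chr5:24590818-24602012 on the minus strand. Smarcb1 (chr10:75896769-75921617) and Smarce1 (chr11:99209047-99231017) lie on the minus strand and Actl6a (chr3:32708546-32726968) on the plus strand.

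Levels are given as deposited, in rpm, which scales the reads of a gene to the total of its library, or in log2 rpm, and between genes they are compared only per kilobase (kb) of merged exons. The libraries held 6829596 to 27472885 reads, and Smarca4.4 on day 5 was the smallest. Even so, the fewest reads behind any value of the 10 genes were 21, for Smarcd3 in that library, and 41 for Smarca2 in Nons on day 7. Libraries of the same day differed in how strongly genes of high GC content or long transcripts were represented. For each library the median deviation from the mean of its day was taken for genes in the upper quartile of GC content and for those in the lower, and the difference of these medians is the GC trend. The length trend was made likewise. The GC trends ran from -0.08 to 0.09 log2 units on day 4 and from -0.11 to 0.09 on day 7, but from -0.61 to 0.67 on day 5 and from -0.15 to 0.30 on day 6. The length trends ran from -0.56 to 0.50 on day 5 and from -0.41 to 0.73 on day 6, against -0.11 to 0.10 on day 4 and -0.23 to 0.33 on day 7. Libraries of days 5 and 6 therefore stand apart. Some results that depend on them are also given for days 4 and 7 alone or after removal of these trends, both chosen after seeing the data. The single-day steps of each gene and the paralog shares are given without such removal. The spread between libraries is that between hairpins, and p-values measure only this. The fit takes the days of a hairpin as independent, although they form 1 culture series. Counts of calls with the culture series as a block are given in the last section. A fit without 1 hairpin leaves 1 library per day in its group. A call lost in such a fit therefore cannot be laid to that hairpin.

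**Figure D1:**
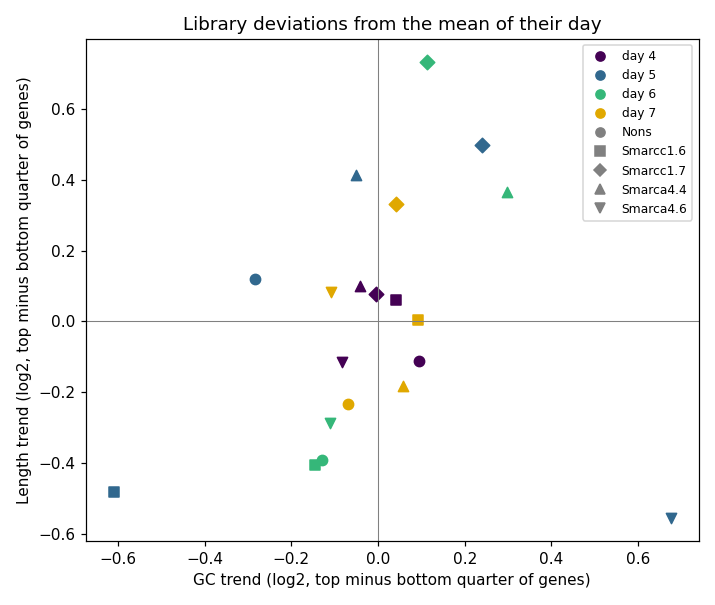
Each point is 1 of the 20 libraries, placed by its GC trend (x axis, log2 units) and its length trend (y axis, log2 units) relative to the mean of its day, with colours for days and symbols for hairpins. The day 4 libraries lie between -0.08 and 0.09 on the x axis, while Smarcc1.6 and Smarca4.6 of day 5 lie at GC trends of -0.61 and 0.67.

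The cells carried the transcripts of embryonic stem cells that were leaving pluripotency. Summed over 7 pluripotency markers, which include Pou5f1, Sox2 and Nanog, the level was 2876 to 3399 rpm on day 4 and 405 to 1017 rpm on day 7, and 7 of 7 were lower on day 7 in the test described below. The 4 primed epiblast markers summed to 1093 to 1606 rpm on day 4 and 268 to 435 rpm on day 7. Sums of the other lists were low on day 4 and day 7, at 6.32 to 11.98 and 25.1 to 117 rpm for 4 fibroblast markers, 2.18 to 2.69 and 9.54 to 21.2 rpm for 5 cardiac and lateral mesoderm markers, and 1.65 to 3.17 and 3.09 to 10.7 rpm for 5 endoderm markers. They were 66.5 to 119 and 99.1 to 135 rpm for 5 neural, 5.75 to 10.3 and 8.47 to 16.4 rpm for 3 trophoblast, and 7.85 to 11.7 and 4.80 to 13.8 rpm for 4 mesendoderm markers. The heart regulator Tbx5 was at 0 in 17 of 20 libraries. In bulk RNA, fewer cells of a type and less RNA per cell cannot be told apart, and the part of changing cell types in the results below was not tested.

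In Nons, the genes of the complex spanned a wide range of levels per kb. Actl6a, which encodes the actin-related subunit, stood highest, at 69.1 to 142 rpm per kb over the 4 days (median 125.5). Smarcb1, the subunit lost in rhabdoid tumours, was at 42.9 to 53.2 rpm per kb, without overlap with Actl6a, but on day 4 Smarcc1 (69.5) and Smarcd1 (43.6) were above it. Smarcc1 (19.6 to 69.5 rpm per kb), Smarce1 (24.2 to 36.8), Smarca4 (14.2 to 34.8), Smarcd2 (19.1 to 24.2) and Smarcd1 (14.03 to 43.6) overlapped in their ranges over days. Within a day, Smarcc1 was above Smarca4 and Smarcd1 on each of the 4 days, and Smarce1 was above Smarcd2. The paralogs Smarcc2 (2.79 to 4.27 rpm per kb) and Smarcd3 (1.80 to 5.92) were below all of these on every day. Smarca2 was lowest, at 0.299 to 1.73 rpm per kb, although with the length of the main transcript in place of the merged exons its highest value, 2.13, passed the lowest of Smarcd3, 2.01. Some exons are shared with genes on the opposite strand, over 33.0% of the exon bases of Smarcd3 (with Chpf2), 22.5% of Actl6a (with Mrpl47) and 14.2% of Smarcd1. Whether counting used strand is not given in the sources used here, so reads of these genes and their antisense partners cannot be told apart.

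**Figure D2:**
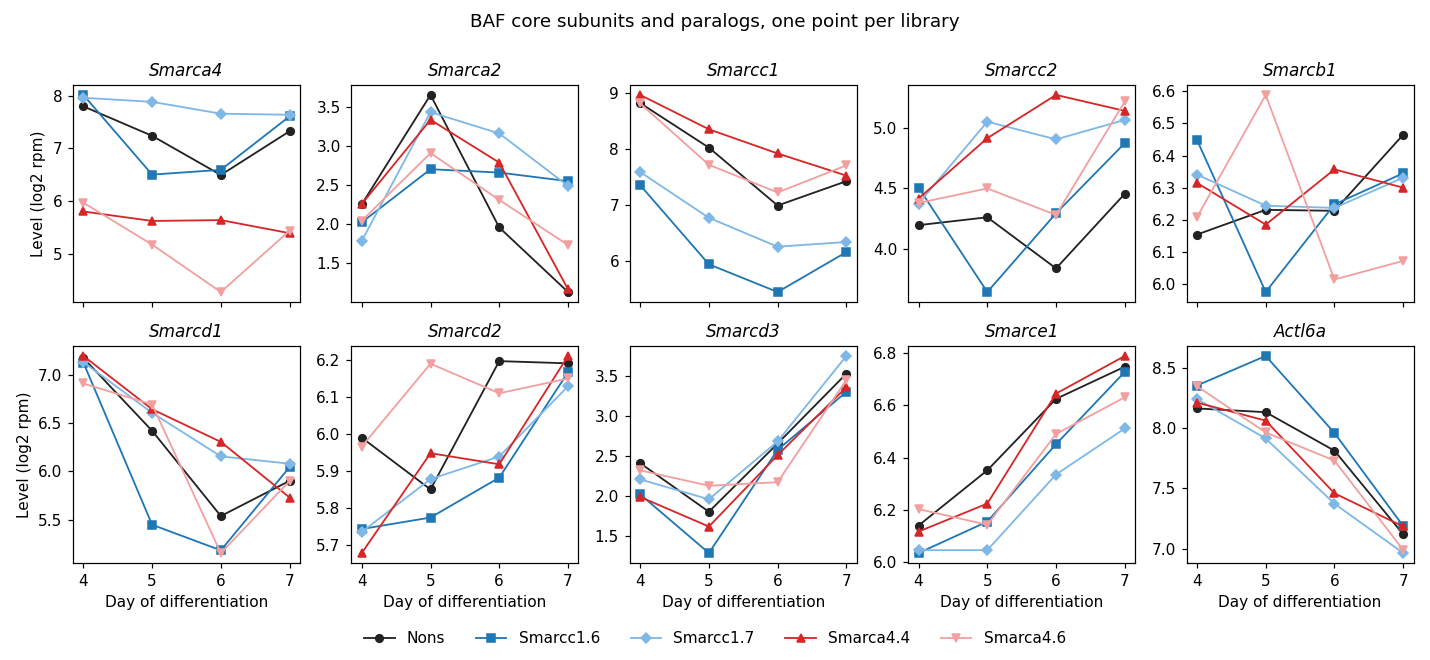
Each panel shows 1 gene, with the day of differentiation on the x axis and the level in log2 rpm on the y axis (each panel has its own scale); each point is 1 library and lines join the 4 days of a hairpin. Smarcc1, Smarcd1 and Actl6a are lower on day 7 than on day 4 in all 5 series, Smarcd3 and Smarce1 are higher, and Smarca2 is highest on day 5 in all 5.

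The first comparison asked how the subunits change between days 4 and 7. Differences were fitted with limma-trend over all 13296 genes, with a mean for each combination of group and day, averaged over the 3 groups, and called at a Benjamini-Hochberg adjusted p under 0.05. Of the 10 genes, 3 rose (Smarcd3, Smarce1 and Smarcd2) and 3 fell (Smarcc1, Smarcd1 and Actl6a), while 4 did not pass. Among all genes tested 35.7% rose and 28.8% fell, so neither the number of risers nor that of fallers is high for this time course. The median difference of the 10 genes was -0.17 on the log2 scale, against 0.08 for all genes. Centring each library on its median gene moved the median of all genes to -0.09, and on that scale the 6 called genes kept their direction, but Smarcd2 no longer passed.

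Among the genes that fell, Smarcc1 encodes the BAF155 scaffold that is abundant in the stem cell form of the complex. In Nons it went from 451 rpm on day 4 to 260 on day 5, 127 on day 6 and 172 on day 7. Over the 5 series its day 7 level was lower by 1.10 to 1.44 log2 units, and the fitted difference was -1.30 (SE 0.224, adjusted p = 0.000230). The fall came in the first steps, at -0.92 from day 4 to 5 (SE 0.224, adjusted p = 0.00678) and -0.67 from day 5 to 6 (SE 0.224, adjusted p = 0.0375). The call of the first was lost without Smarca4.6 (adjusted p = 0.0528), and that of the second without Smarca4.4 (adjusted p = 0.101) or Smarca4.6 (adjusted p = 0.113). Both steps were negative in 5 of 5 series, whereas from day 6 to 7 Smarcc1 went up in 4 of 5 with a difference of 0.29 that did not pass (adjusted p = 0.327).

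Smarcd1 (BAF60A), the SMARCD paralog that binds many transcription factors, followed a similar course. Its levels in Nons were 144, 85.6, 46.4 and 59.7 rpm on days 4 to 7, and the lowest day 4 library (120 rpm) lay above the highest day 7 library (67.5 rpm). The difference between days 7 and 4 was -1.19 (SE 0.273, adjusted p = 0.00189). The step to day 5 was -0.75 (SE 0.273, adjusted p = 0.0460), and its call was lost without Smarcc1.6 (-0.55, adjusted p = 0.115), in which Smarcd1 had the lowest value of day 5 (43.6 rpm), and also without Smarca4.4 (-0.69, adjusted p = 0.135) or Smarca4.6 (-0.80, adjusted p = 0.104). Actl6a fell late. It stood at 286, 280, 225 and 139 rpm in Nons, with a step of -0.60 from day 6 to 7 (SE 0.162, adjusted p = 0.0189) and a total of -1.15 from day 4 to 7 (SE 0.162, adjusted p = 4.11e-05). The late step did not pass without Smarca4.4 (adjusted p = 0.0699) or Smarca4.6 (adjusted p = 0.166). Its 5 libraries of day 7 (125 to 146 rpm) lay below all 5 of day 4 (286 to 326 rpm).

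Among the genes that rose, Smarcd3 (BAF60C), best known from heart and muscle, was at 5.31, 3.49, 6.30 and 11.5 rpm in Nons. In 5 of 5 series it went down from day 4 to 5 and up in both later steps. The early difference of -0.46 did not pass (adjusted p = 0.0786), the later ones of 0.77 (SE 0.195, adjusted p = 0.00961) and 0.94 (SE 0.195, adjusted p = 0.00529) did, and from day 4 to 7 the gain was 1.26 (SE 0.195, adjusted p = 9.36e-05). The step to day 6 did not pass without Smarca4.4 (adjusted p = 0.0822), nor that to day 7 without Smarca4.6 (adjusted p = 0.0570). Smarce1 (BAF57), the subunit with an HMG domain, went up more gradually, from 70.6 rpm in Nons on day 4 to 107.5 rpm on day 7. Its difference was 0.58 (SE 0.106, adjusted p = 0.000357), and the step from day 5 to 6 was 0.32 (SE 0.106, adjusted p = 0.0367), which did not pass when any 1 of the 4 targeting hairpins was left out (adjusted p = 0.105 to 0.123) or after centring (adjusted p = 0.112). Smarcd2 (BAF60B), which has a role in granulocytes, changed less, from 51.2 to 63.6 rpm over the day 4 libraries to 70.0 to 74.1 rpm over those of day 7. The 2 sets did not overlap, with a difference of 0.32 (SE 0.112, adjusted p = 0.0224) that did not pass without Smarcc1.6 (adjusted p = 0.0889), Smarcc1.7 (adjusted p = 0.0800) or Smarca4.4 (adjusted p = 0.0913). In all, the libraries of days 4 and 7 did not overlap for 5 of the 10 genes (Smarcd1, Smarcd2, Smarcd3, Smarce1 and Actl6a), against 63.3% of all genes tested.

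**Figure D3:**
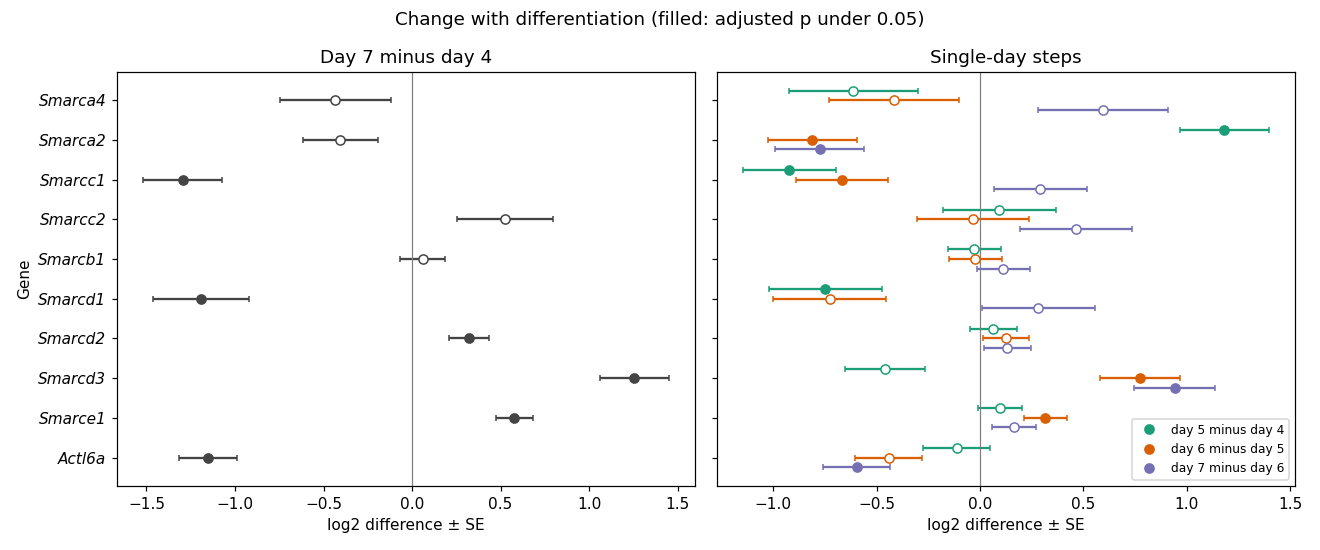
Fitted log2 differences with standard errors (bars) for the 10 genes, between days 7 and 4 (left) and for each step of 1 day (right), averaged over the groups; filled points passed an adjusted p of 0.05 in limma. Smarcc1, Smarcd1 and Actl6a lie between -1.30 and -1.15 on the left, Smarcd3 at 1.26, and Smarca2 changes sign between its steps on the right.

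Smarca2, the alternative ATPase, had a peak within the time course, and its difference of -0.40 between days 7 and 4 did not pass (95% confidence interval -0.87 to 0.06, lower in 3 series and higher in 2). Its 5 libraries of day 5 (6.51 to 12.6 rpm) all lay above the 5 of day 4 (3.44 to 4.78 rpm). The step to day 5 was 1.18 (SE 0.215, adjusted p = 0.00114), and it was followed by -0.81 to day 6 (SE 0.215, adjusted p = 0.0125) and -0.77 to day 7 (SE 0.215, adjusted p = 0.0206). Each of the 3 steps had 1 sign in all 5 series, but the last did not pass without Smarcc1.7 (adjusted p = 0.0588), Smarca4.4 (adjusted p = 0.107) or Smarca4.6 (adjusted p = 0.0532). With additive terms for group and day, the step to day 6 was -0.63 (adjusted p = 0.0740). Smarca2 is expressed at few rpm, so the peak is a change within a low range.

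Smarca4, Smarcc2 and Smarcb1 did not pass in any of these steps. Smarca4, which supplies the main ATPase, was 0.32 to 0.53 log2 units lower on day 7 than on day 4 in all 5 series, but its libraries of days 5 and 6 were spread widely, and the fitted difference of -0.43 had an SE of 0.313 (adjusted p = 0.241). In days 4 and 7 alone the same difference passed (adjusted p = 3.55e-05), as did 0.52 for Smarcc2 (adjusted p = 5.12e-05) and -0.40 for Smarca2 (adjusted p = 0.0278), but 10995 of the 13296 genes passed in that fit. Smarcb1 kept to 62.9 to 96.3 rpm in all 20 libraries, and its difference of 0.06 between days 7 and 4 had a 95% confidence interval of -0.22 to 0.34. The calls for single steps cover 3 of the 10 genes from day 4 to 5 (38.7% of all genes), 4 from day 5 to 6 (32.3%) and 3 from day 6 to 7 (27.5%). Without Smarca4.6, and without Smarca4.4, fewer of the 10 genes were called in each step, and fewer of all genes as well. Each of these fits leaves 1 library per day in the Smarca4 group, so it cannot show that a count depends on a given hairpin.

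The second comparison set each knockdown against Nons of the same day. Smarcc1 had 163, 61.5, 43.6 and 71.5 rpm with Smarcc1.6 on days 4 to 7 and 192, 109, 76.4 and 81.0 rpm with Smarcc1.7. All 8 values were below Nons, at 23.7% to 60.1% of it. The fitted difference was -1.33 (SE 0.206, adjusted p = 0.00115). Because Smarcc1 falls during differentiation, the knockdown libraries of day 4 overlapped the Nons libraries of days 6 and 7.

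Smarca4 had 56.0, 49.5, 50.0 and 42.2 rpm with Smarca4.4 and 62.9, 36.3, 19.5 and 43.6 rpm with Smarca4.6, against 222, 151, 90.4 and 160 rpm in Nons. All 8 knockdown values lay below the lowest Nons value, at 21.6% to 55.3% of Nons of the same day, with a fitted difference of -1.79 (SE 0.288, adjusted p = 0.00277). Without Smarca4.6 it was -1.59 and did not pass (adjusted p = 0.0685). A genotype label calls these 8 libraries a Smarcc knockdown. The titles name Smarca4 and were followed, and Smarcc1 was at 149 to 498 rpm in them, within 80.9% to 190% of Nons.

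The targeted gene was the single one of the 10 called in each knockdown. This is 1 of 10 genes for Smarcc1 (10.6% of all genes tested were called) and 1 of 10 for Smarca4 (6.71%), and in each case it is the gene the hairpin was made against. The median difference of the 10 genes was -0.02 for Smarcc1 knockdown and -0.03 for Smarca4 knockdown, against 0.06 for all genes in both. The contrasts with Nons share the same 4 Nons libraries. Between the knockdowns themselves, 2 of 10 genes were called (4.09% of all genes), again the targets: Smarca4 was 2.06 higher (SE 0.235, adjusted p = 0.000508) and Smarcc1 1.54 lower in Smarcc1 knockdown, with a fitted value of -1.54 (SE 0.168, adjusted p = 0.000417).

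**Figure D4:**
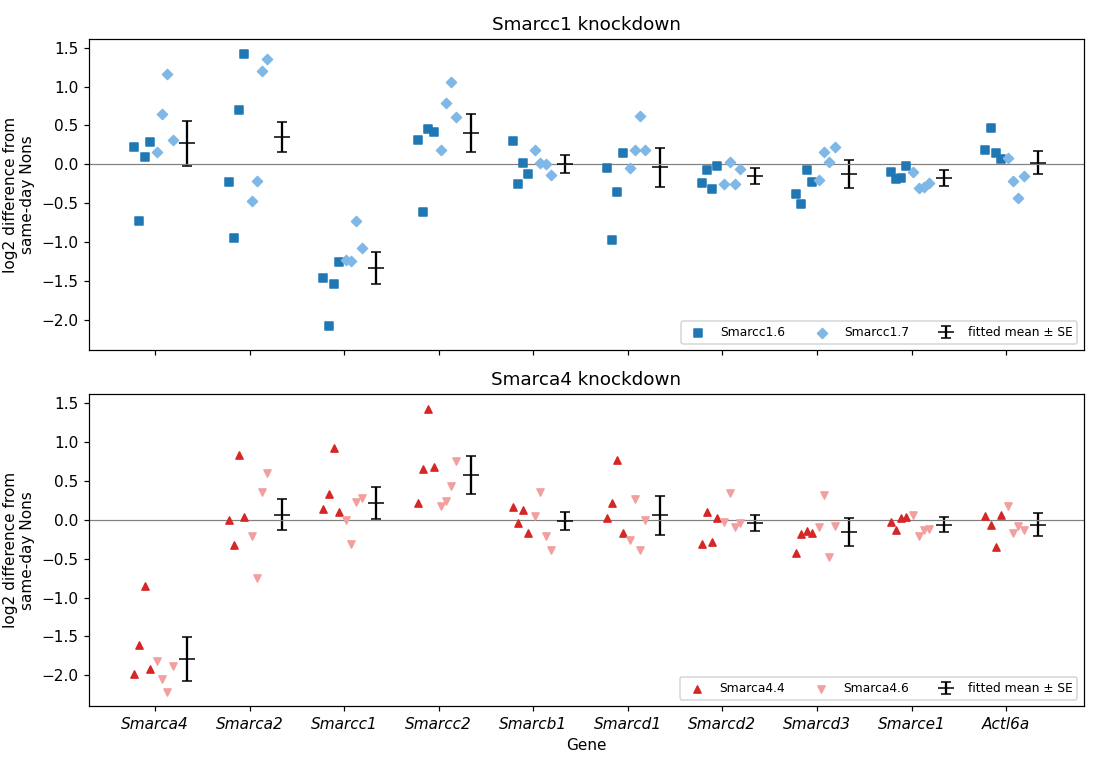
Log2 difference of each knockdown library from Nons of the same day (y axis) for the 10 genes (x axis), with Smarcc1 knockdown above and Smarca4 knockdown below; within a hairpin the points run from day 4 to day 7, and black bars are the fitted mean and its standard error. The targets lie below 0 in 8 of 8 libraries, while Smarcc2 lies above 0 in 7 of 8 and 8 of 8 libraries without passing the test.

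The paralogs of the targets were not called. Smarcc2, which encodes BAF170, the partner and alternative of BAF155, had 12.5 to 33.5 rpm (median 26.0) in Smarcc1 knockdown and 19.4 to 38.6 rpm (median 26.4) in Smarca4 knockdown, against 14.3 to 21.95 rpm in Nons. It was above Nons of the same day in 7 of 8 and 8 of 8 libraries. The fitted differences were 0.40 (95% confidence interval -0.14 to 0.94, adjusted p = 0.381) and 0.58 (0.04 to 1.12, adjusted p = 0.220). The exception was Smarcc1.6 on day 5, the library with a GC trend of -0.61, and the highest value was that of Smarca4.4 on day 6, with a GC trend of 0.30 and a length trend of 0.36. Nons of day 6, the reference for that day, had a GC trend of -0.13 and a length trend of -0.39. Smarca4.6 of day 5, with a GC trend of 0.67 and a length trend of -0.56, had Smarcc2 at 118% of Nons. The part of these trends in the Smarcc2 values was not tested. In days 4 and 7 alone Smarcc2 passed in both knockdowns, at 0.38 (adjusted p = 0.0160) and 0.46 (adjusted p = 0.0109). After removal of the GC and length trends it passed in Smarca4 knockdown at 0.40 (adjusted p = 0.0318). These fits also called more genes in all, 3753 and 1918 on days 4 and 7 alone and 1943 of 11420 after removal of the trends.

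Smarca2 had 2.24 to 10.1 rpm in Smarca4 knockdown and 2.19 to 12.6 rpm in Nons, and its difference of 0.07 did not pass (95% confidence interval -0.36 to 0.50, adjusted p = 0.894) and took the other sign when libraries were centred or quantile normalized. In Smarcc1 knockdown it ended higher than it began. Smarca2 went from 4.77 rpm on day 4 to 2.19 on day 7 in Nons, from 4.78 to 2.24 with Smarca4.4 and from 4.12 to 3.32 with Smarca4.6, but from 4.06 to 5.86 with Smarcc1.6 and from 3.44 to 5.61 with Smarcc1.7. On day 7 the Smarcc1 knockdown libraries were the 2 highest of the 5, at 268% and 257% of Nons, and on day 4 the 2 lowest. The change from day 4 to 7 exceeded that in Nons by 1.74 (SE 0.558, unadjusted p = 0.00830), which did not pass over all genes (adjusted p = 0.285). It passed in days 4 and 7 alone (adjusted p = 0.0184, with 1576 genes called) and after removal of the GC and length trends, at 1.51 (adjusted p = 0.0360, with 382 genes called). None of the 10 genes was called for another day 4 to 7 change in Smarcc1 knockdown, where 0.459% of all genes were, or in Smarca4 knockdown, where 0.0827% were. At an unadjusted p under 0.05 in limma, Smarca2 in Smarcc1 knockdown was the only one. Of all 13296 genes, 1034 had such a p in Smarcc1 knockdown and 556 in Smarca4 knockdown.

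None of the other subunits was called against Nons in limma. Smarce1 was below Nons of the same day in 8 of 8 Smarcc1 knockdown libraries, at 81.0% to 98.6%, but its difference of -0.18 did not pass (95% confidence interval -0.39 to 0.03, adjusted p = 0.311). It passed after removal of the GC and length trends, at -0.25 (adjusted p = 0.0498, with 2561 genes called). Smarca4 in Smarcc1 knockdown passed in days 4 and 7 alone, at 0.24 (adjusted p = 0.0376), but was at 0.03 after removal of the trends (adjusted p = 0.843). Smarcb1 differed by 0.00 (-0.25 to 0.26) in Smarcc1 knockdown and by -0.01 (-0.27 to 0.24) in Smarca4 knockdown. Wider intervals remained for Smarcd1, from -0.58 to 0.51 and from -0.48 to 0.60, and for Smarca4 in Smarcc1 knockdown, from -0.36 to 0.89.

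The 2 hairpins against a gene were also compared over the 4 days. Smarcc1 was higher with Smarcc1.7 than with Smarcc1.6 on each day, by 0.51 on average (95% confidence interval 0.19 to 0.84, adjusted p = 0.0906). Smarca4 was likewise higher with Smarcc1.7, by 0.60 (adjusted p = 0.104), mostly through days 5 and 6, when it had 236 and 202 rpm against 90.8 and 96.7 rpm, and Actl6a was lower, by -0.40 (adjusted p = 0.0906). On those days the length trends were 0.50 and 0.73 for Smarcc1.7 and -0.48 and -0.41 for Smarcc1.6, and the longest transcripts of Smarca4 (6.38 kb) and Smarcc1 (5.77 kb) are longer than those of 87.6% and 84.3% of genes. The part of these trends in the hairpin differences was not tested. On days 4 and 7 alone the hairpins differed by -0.01 for Smarca4 and by 0.21 for Smarcc1. None of the 10 genes was called between the Smarcc1 hairpins, and 0% of all genes were, in limma-trend and in limma-voom, although 4148 genes had an unadjusted p under 0.05. Between the Smarca4 hairpins there were also 0 calls among the 10 and among all genes (0%) in both tools, with 1550 at an unadjusted p under 0.05, and Smarca4 differed by -0.40 (95% confidence interval -0.88 to 0.09) between Smarca4.6 and Smarca4.4.

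Within a library, the shares of paralogs per kb put these changes on 1 scale that does not depend on the library's total. The share of Smarca2 in the sum of Smarca4 and Smarca2 was 1.84%, 6.80%, 3.61% and 1.18% in Nons on days 4 to 7. In Smarca4 knockdown it was 4.44% to 18.2% and highest on day 5 or 6, and in Smarcc1 knockdown it was 1.195% to 5.89%. The larger share in Smarca4 knockdown goes with less Smarca4, since the summed level of the pair was 3.74 to 10.4 rpm per kb there and 14.7 to 35.5 in Nons. Smarcc2 took 4.88%, 8.53%, 12.4% and 13.9% of the Smarcc pair in Nons, more on each later day. Its share also went up from each day to the next in both Smarca4 hairpins and in Smarcc1.7, to 18.4% to 19.5% and 34.3% on day 7. With Smarcc1.6 it was 36.2% on day 6 and 34.1% on day 7. Knockdown of Smarcc1 thus left Smarcc1 the larger transcript of the pair in 8 of 8 libraries, at 63.8% to 88.0%.

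Within the Smarcd genes, Smarcd1 took 61.0% to 70.0% over the 5 libraries of day 4 and 35.02% to 40.9% over those of day 7. Smarcd2 went from 26.8% to 34.7% on day 4 to 45.9% to 53.5% on day 7, and in 5 of 5 libraries of day 7 it was the largest of the 3. Smarcd3 went from 3.23% to 4.32% to 10.4% to 13.7%. The lead of Smarcd1 on day 4 and of Smarcd2 on day 7 was thus seen in every series, whichever hairpin it carried. These shares rest on transcripts and on the exon lengths of GENCODE M21, and they are not shares of protein.

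**Figure D5:**
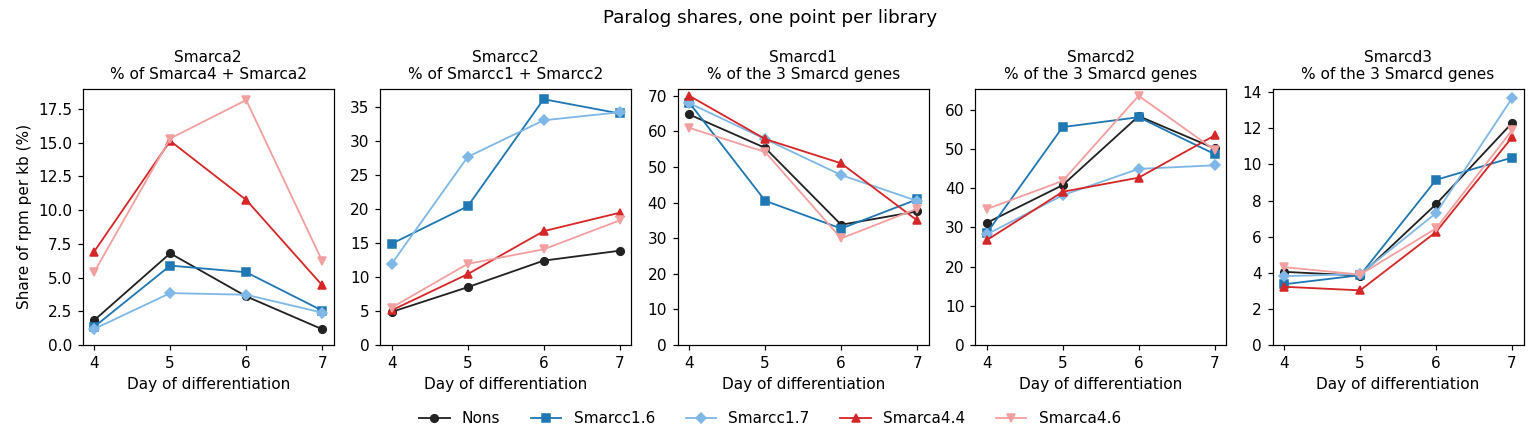
Share of a paralog in the summed rpm per kb of its family (y axis, percent) by day of differentiation (x axis), 1 point per library and a line per hairpin. The share of Smarca2 peaks on day 5 or 6, that of Smarcc2 is at least 11.98% on each day with both Smarcc1 hairpins, and Smarcd1 gives way to Smarcd2 and Smarcd3.

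Likeness across the 20 libraries is described with Pearson's r of log2 rpm and without a test, because libraries share days and series. For Smarca4 and Smarcc1, r also takes in the 8 libraries in which each was itself the target. The highest values within the set were those of Smarcd3 with Smarce1 (0.76), Smarcd2 with Smarce1 (0.72), Smarcd2 with Smarcd3 (0.69) and Smarcc1 with Smarcd1 (0.67). The lowest were those of Actl6a with Smarcd3 (-0.90) and with Smarce1 (-0.81). Smarca4, Smarca2, Smarcb1 and Smarcc2 had no value above 0.494 with another of the 10. Among the 9496 other genes above the level set for this search (a mean of 3 on the log2 rpm scale), the 2 most alike were Uba2 and l7Rn6 for Actl6a (0.98 each), Cldn12 and Ilk for Smarce1 (0.98 and 0.96) and Spnb3 and Pacs1 for Smarcc2 (0.96 and 0.93). They were Nucb1 and Plcd3 for Smarcd3 (0.96 and 0.95), Irgm1 and Cdk2 for Smarcc1 (0.90 and 0.85), Thap3 and Adc for Smarcd2 (0.89 and 0.88) and Sesn3 and Hmgn5 for Smarca2 (0.87 and 0.85). Smarca4 (Rnf219 and Atf5) and Smarcb1 (Pex14 and Prelid1) had the least close companions, at 0.81 each. For Smarcd1 the most alike was Rbm14 (0.98). Symbols are as in the table.

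Of 21 further BAF, PBAF and ncBAF subunits that were listed, 19 were tested, and Dpf3 and Actl6b, which belong to later, tissue-specific forms, were too low. In Smarcc1 knockdown 1 of the 19 rose and 1 fell, and in Smarca4 knockdown 1 rose and 3 fell, with medians of 0.09 and 0.08. Among all genes 7.54% rose and 3.08% fell in Smarcc1 knockdown and 4.75% and 1.96% in Smarca4 knockdown, with a median of 0.06 in both. Bcl11a, a zinc finger protein found with BAF, was below Nons in all 16 libraries, at 41.1% to 79.3% in Smarcc1 and 29.0% to 76.2% in Smarca4 knockdown. Its differences were -0.87 (SE 0.192, adjusted p = 0.0109) and -1.07 (SE 0.192, adjusted p = 0.00529). Dpf1, a PHD finger subunit known from neurons, was above Nons in 7 of 8 libraries of each knockdown, with differences of 1.10 (SE 0.197, adjusted p = 0.00318) and 0.77 (SE 0.197, adjusted p = 0.0344). Phf10, the PHD finger subunit of PBAF, and Bcl11b, the relative of Bcl11a, were called in Smarca4 knockdown alone, at -0.47 (SE 0.104, adjusted p = 0.0184) and -1.26 (SE 0.319, adjusted p = 0.0330), and neither was called between the knockdowns. Bcl11b was low, at 0.366 to 4.19 rpm. Without Smarca4.4, without Smarca4.6, or with culture series as a block, the number of further subunits called in a knockdown was 2 in place of 4.

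Bcl11a, Dpf1 and Phf10 also changed over the days. Bcl11a fell from 26.9 rpm on day 4 to 4.26 rpm on day 7 in Nons, and Dpf1 from 18.7 to 1.23 rpm. Dpf1 on day 7 was at 3.57 to 7.23 rpm in the 4 knockdown libraries, and on day 4 at 17.0 to 23.5 rpm, close to Nons. Phf10 rose from 71.6 to 137 rpm in Nons and peaked at 212 rpm on day 5, when the 4 knockdown libraries had 109 to 130 rpm. Among the 19 genes, 3 rose and 6 fell between days 4 and 7 (35.7% and 28.8% of all genes), with Bcl11a (-3.17) and Dpf1 (-2.74) the largest falls and Phf10 (0.92) the largest rise. Pluripotency markers moved with the knockdowns as well, with 5 of 7 higher in Smarcc1 and 3 of 7 higher in Smarca4 knockdown and 0 lower, and 2 of 4 primed epiblast markers were lower in each. Some markers of other cell types were called too. Of 4 neural markers tested, Sox1 alone was called, higher by 2.40 and 2.33 in Smarcc1 and Smarca4 knockdown, and the lowest were at -0.45 and -0.39. Gata4, the only 1 of 5 endoderm markers tested, was higher by 1.14 and 0.89. Of 4 fibroblast markers, Dcn was lower in both, at -2.95 and -2.37, and Col1a1 was higher by 1.32 in Smarcc1 knockdown. Of 2 cardiac and lateral mesoderm markers tested, Hand1 was higher by 1.35 in Smarca4 knockdown and the other was at -0.23. The 1 mesendoderm and 1 trophoblast marker tested were not called. The summed pluripotency level over days was 686 to 3450 rpm, 405 to 3399 rpm and 619 to 3197 rpm in Smarcc1 knockdown, Smarca4 knockdown and Nons. The part of these markers in the changes of Bcl11a and Dpf1 was not tested.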

How the data were processed

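RNA-seq of 20 libraries was analysed: 8 Smarcc1 knockdown, 8 Smarca4 knockdown and 4 Nons, on days 4 to 7. Groups and days came from the sample titles, and the 4 libraries of another Nons replicate are not used. Single-end reads had been trimmed (trim_galore) and mapped to the mm10 build by tophat or hisat2 (the submitters' processing notes list bcl2fastq, HISAT2 and mm10), and the authors deposited log2 rpm values per gene from the RNA-seq pipeline of SeqMonk. The annotation release and the use of strand are not given in the sources used here.

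From these values, the lowest of a library was taken as 0.9 of a read, which gave whole reads (within 0.05) for 100% of the lower values and totals of 6829596 to 27472885 reads. Linear models with a mean-variance trend (limma 3.58.1, R 4.3.3) were run on the log2 values of 13296 genes with a mean of at least 0, with 12 means of group and day, 8 residual degrees of freedom and Benjamini-Hochberg adjustment over all genes at a threshold of 0.05. Hairpins were compared with series and day as terms (12 residual degrees of freedom). Exon lengths, GC content, target sites and overlaps came from GENCODE M21.

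The text names the 10 members, further BAF subunits that passed in a knockdown, and for each member the 2 genes most like it, of which 1 is not reported here. The members, lists and tests were chosen with earlier results of these data known. Alternatives were other filters, 1 added to rpm, centring, quantile normalization, limma-voom on recovered reads, additive terms, a block and left-out libraries. Removal of trends with GC content and transcript length (natural splines per library, on deviations from the mean of the day, for 85.9% of tested genes) and days 4 and 7 alone were chosen after seeing the data. Hairpin numbers pair no cultures across groups, so the block was the culture series, entered through duplicateCorrelation (correlation 0.217).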

Additional observations from a re-analysis of the deposited data

Results flagged for a closer look

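In Smarca4 knockdown, Smarca4.4 on day 6 stood far from the other 7 libraries in its difference from Nons of the same day for Smarca4 itself (-0.85 on the log2 scale, the smallest reduction) and for Smarcc2 (1.43, the largest excess). For independent, normally distributed values chance gives such a gap in about 1 of 20 groups, and 20 groups were examined. The values of a group share culture series and Nons libraries, so that rate need not hold here. Smarca2 changed in opposite directions between days 4 and 7 in the knockdowns: it went up by 0.53 with Smarcc1.6 and 0.70 with Smarcc1.7, and changed by -1.09 with Smarca4.4 and -0.31 with Smarca4.6. This difference between the knockdowns was not tested.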

How the results depend on the processing

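No value of the 20 that passed the threshold changed sign under any alternative tried, and 30 of their 284 alternatives no longer passed. Of the 90 that did not pass, 89 of 1214 alternatives changed sign and 37 passed. The difference of Smarca2 in Smarca4 knockdown, not called in the first place, became -0.00613 after centring, -0.0729 after quantile normalization and -0.0837 after removal of GC and length trends, and ran from -0.000496 to 0.138 with hairpins left out. Counts of called members ranged, with each hairpin left out in turn, from 0 to 1 in Smarca4 knockdown (0 without Smarca4.6), 1 to 4 for day 4 to 5, 1 to 4 for day 5 to 6 and 0 to 3 for day 6 to 7, and 2 to 5 for the other BAF subunits. Such a fit leaves 1 library per day in the group concerned, so it cannot show that a count depends on a given hairpin. The fewest calls came without Smarca4.6 for day 4 to 5 and day 6 to 7 and without Smarca4.4 for day 5 to 6. With genes of at least 10 rpm, a filter that drops Smarca2 and Smarcd3, they were 1, 2 and 1 for the steps of days and 1 for the other subunits. Additive terms gave 5 for day 4 to 5. With the replicate block of culture series, 2 other subunits were called in place of 4, and the block moved no other of these counts by over 1.5 times, although over all genes the calls went from 1412 to 605 in Smarcc1 knockdown, from 892 to 258 in Smarca4 knockdown and from 544 to 105 between them. Removal of GC and length trends gave 2 in each knockdown, 5, 7 and 6 for the steps of days and 1 for another day 4 to 7 change in Smarcc1 knockdown. More of all genes were called too. Of 11420 genes, 3270 rose and 3601 fell to day 5, 3074 and 2877 to day 6, and 4097 and 2064 to day 7. In Smarcc1 knockdown 1460 rose and 1101 fell, and in Smarca4 knockdown 1066 and 877. The removal acts on deviations from the mean of a day, so a trend shared by all libraries of that day remains in these steps. The cause of these moves was not tested. Days 4 and 7 alone gave 3 members in Smarcc1 knockdown, 2 in Smarca4 knockdown and 1 for another change over days. Over all genes, calls in Smarcc1 knockdown ranged from 491 (at least 10 rpm) to 3753 (days 4 and 7), and were 843 without Smarcc1.7. In Smarca4 knockdown they ranged from 258 (block) to 1943 (trends removed), with 277 without Smarca4.6 and 420 without Smarca4.4, and between the knockdowns from 49 (without Smarcc1.6) to 1731. For another change over days they ranged in Smarcc1 knockdown from 0 (without Smarcc1.6) to 1576 and in Smarca4 knockdown from 0 to 446. Smarcd2 between days 7 and 4 did not pass after centring (0.15, adjusted p = 0.337 in limma) or without Smarcc1.6, Smarcc1.7 or Smarca4.4. Depth limits the low genes most, as Smarca2 and Smarcd3 rest on as few as 41 and 21 reads.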
